A study of Mus musculus with 6 samples.

Results

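The 10 genes described here encode proteins that coat, fill and empty the lipid droplet of fat cells: Plin1, Plin2, Plin4, Cidec, Lipe, Pnpla2, G0s2, Dgat2, Fabp4 and Pparg. They were taken by symbol from a list of named adipocyte droplet and lipolysis genes, and their 10 rows are among 55401 gene rows of the count table. All 10 were also among the 19833 genes that passed the filter on low counts and were tested. Expression was measured by polyA RNA sequencing of mouse aorta in 3 samples from IL16-/-ApoE-/- mice and 3 samples from ApoE-/- mice. The IL16-/-ApoE-/- mice carry mutations of both Il16, a secreted cytokine that binds CD4, and Apoe, the apolipoprotein through which lipoprotein remnants are cleared. The ApoE-/- mice carry the second mutation alone. All of them therefore lacked intact Apoe, and all ate a high-fat diet that began at 8 weeks of age and lasted 24 weeks. The labels state no sex, strain, stretch of aorta or handling of the fat around it. The labels number the samples of each group 1 to 3 without saying that they are separate animals, so a p-value here weighs a difference against the spread of the numbered samples, which may be technical.

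White and brown fat cells store triglyceride in lipid droplets, whose surface is covered by perilipins that hold lipases away until adrenergic signalling releases them. Adipose triglyceride lipase takes the first fatty acid from triglyceride and hormone-sensitive lipase the next, while the last step of synthesis is run by a diacylglycerol acyltransferase. The nuclear receptor PPARG, with C/EBP factors, drives the expression of many of these genes. The outer wall of the mouse aorta is surrounded by perivascular fat, and several of the genes are also used by macrophages that take up lipid in atherosclerotic plaques.

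The promoters of 8 of the 10 genes, all but Fabp4 and Dgat2, were found in the RefSeq table for GRCm38.p6, in 12 windows that run from 250 bases before to 50 bases after a start site. Those of Plin1, Plin2, Plin4 and the most downstream starts of Cidec and Pparg are printed from 250 bases upstream to the start, 5′ to 3′ on the strand of the gene. They were chosen because Plin1, Cidec, Plin2 and Pparg moved together across libraries and Plin4 did not. Capitals mark letters of the nuclear receptor half-site AGGTCA or of the C/EBP pattern TTGCNNAA on either strand. The other Cidec window, at chr6:113435761-113436010, held neither, and the half-site matches of Pparg lie in its windows that are not printed.
Plin1 (chr7:79732777-79733026, minus strand): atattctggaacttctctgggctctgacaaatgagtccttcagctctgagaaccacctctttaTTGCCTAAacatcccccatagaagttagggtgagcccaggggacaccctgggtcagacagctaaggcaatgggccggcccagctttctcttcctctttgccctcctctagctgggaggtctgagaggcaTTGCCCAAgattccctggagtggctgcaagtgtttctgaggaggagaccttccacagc
Cidec (chr6:113434765-113435014, minus strand): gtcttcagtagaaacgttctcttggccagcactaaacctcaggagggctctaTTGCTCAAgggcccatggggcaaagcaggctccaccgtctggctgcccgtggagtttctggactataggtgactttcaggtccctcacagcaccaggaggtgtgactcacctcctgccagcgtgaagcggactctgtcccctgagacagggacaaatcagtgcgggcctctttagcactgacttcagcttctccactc
Plin2 (chr4:86670060-86670309, minus strand): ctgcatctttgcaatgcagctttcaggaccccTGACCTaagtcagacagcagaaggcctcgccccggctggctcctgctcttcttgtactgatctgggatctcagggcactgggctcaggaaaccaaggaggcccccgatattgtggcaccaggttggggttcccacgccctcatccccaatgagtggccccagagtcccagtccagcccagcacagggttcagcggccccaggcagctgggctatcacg
Plin4 (chr17:56109783-56110032, minus strand): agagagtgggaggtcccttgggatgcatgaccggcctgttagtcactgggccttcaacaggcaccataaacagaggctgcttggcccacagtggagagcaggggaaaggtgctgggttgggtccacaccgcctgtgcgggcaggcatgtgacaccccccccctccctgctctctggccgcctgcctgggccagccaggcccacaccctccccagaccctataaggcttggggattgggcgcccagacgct
Pparg (chr6:115421816-115422065, plus strand): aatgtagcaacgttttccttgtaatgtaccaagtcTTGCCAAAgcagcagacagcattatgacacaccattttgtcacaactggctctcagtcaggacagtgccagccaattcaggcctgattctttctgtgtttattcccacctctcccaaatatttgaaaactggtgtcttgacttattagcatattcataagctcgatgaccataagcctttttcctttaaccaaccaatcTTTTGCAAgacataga

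The C/EBP pattern was matched in windows of Plin1, Cidec and Pparg, and in 10.8% of all 32851 windows of the table. The half-site was matched in windows of Plin2 and Pparg, against 16.3% of all windows. None of the 12 windows held the PPAR-type direct repeat AGGTCANAGGTCA, which 0.0396% of all windows hold, or the looser form AGGNCANAGGNCA, which 0.381% hold. An E-box CACGTG was matched for Lipe and Plin2 (7.15% of all windows), the letters TATAAA for Pparg (13.6%) and CCAAT for Plin2, Plin4 and Pparg (37.4%). Both strands were read, the half-site lies within the direct repeats, and these matches describe letters within these windows only.

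Libraries held 43340294, 47208779 and 42861980 counts in IL16-/-ApoE-/- 1, 2 and 3, and 85568269, 65730552 and 84993242 counts in ApoE-/- 1, 2 and 3, so the depths of the groups did not overlap. Il16 had 7.93, 12.1 and 12.2 CPM (counts per 1e+06 of the TMM-scaled library total) in IL16-/-ApoE-/- aortas, against 28.3, 28.7 and 15.1 CPM in ApoE-/- aortas. It was lower in every IL16-/-ApoE-/- library but did not pass the test (log2 fold change -1.16, edgeR quasi-likelihood test, adjusted p = 0.163). Apoe reads were counted in all 6 libraries, at 138, 183 and 137 CPM in IL16-/-ApoE-/- and at 45.04, 24.9 and 20.9 CPM in ApoE-/- aortas, and rose in the double mutants by 2.34 on the log2 scale (SE 0.33, edgeR adjusted p = 0.0369). The labels do not say which exons the mutations remove, so these counts do not check the genotypes. The library ApoE-/- 1 stood apart in sex-linked genes. Xist, transcribed from the inactive X, was at 4.86, 4.56 and 5.52 CPM in IL16-/-ApoE-/- and at 474, 6.21 and 0.497 CPM in ApoE-/- aortas. The Y-linked Ddx3y was at 75.6, 70.1 and 73.3 CPM in IL16-/-ApoE-/- and at 0.143, 134 and 136 CPM in ApoE-/- aortas.

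The lipid droplet genes were even across the double mutants and split the ApoE-/- group at the same library. In the 3 IL16-/-ApoE-/- aortas 10 of 10 genes had nearly the same level (coefficient of variation at most 9.06%). In the ApoE-/- group 9 of them were higher in ApoE-/- 1 than in ApoE-/- 2 and 3, by 2.05 to 12.3 times. With all 6 libraries none of the 10 passed the test in either direction, although 10 of 10 fold changes were positive, as were 9212 of the 19833 over all genes tested. Without ApoE-/- 1, 8 of the 10 rose, by 1.66 (G0s2) to 3.15 (Fabp4) on the log2 scale, in a fit in which 13.1% of all genes were higher and 12.8% lower. Plin4 stayed between 294 and 401 CPM in all 6 libraries.

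**Figure D1:**
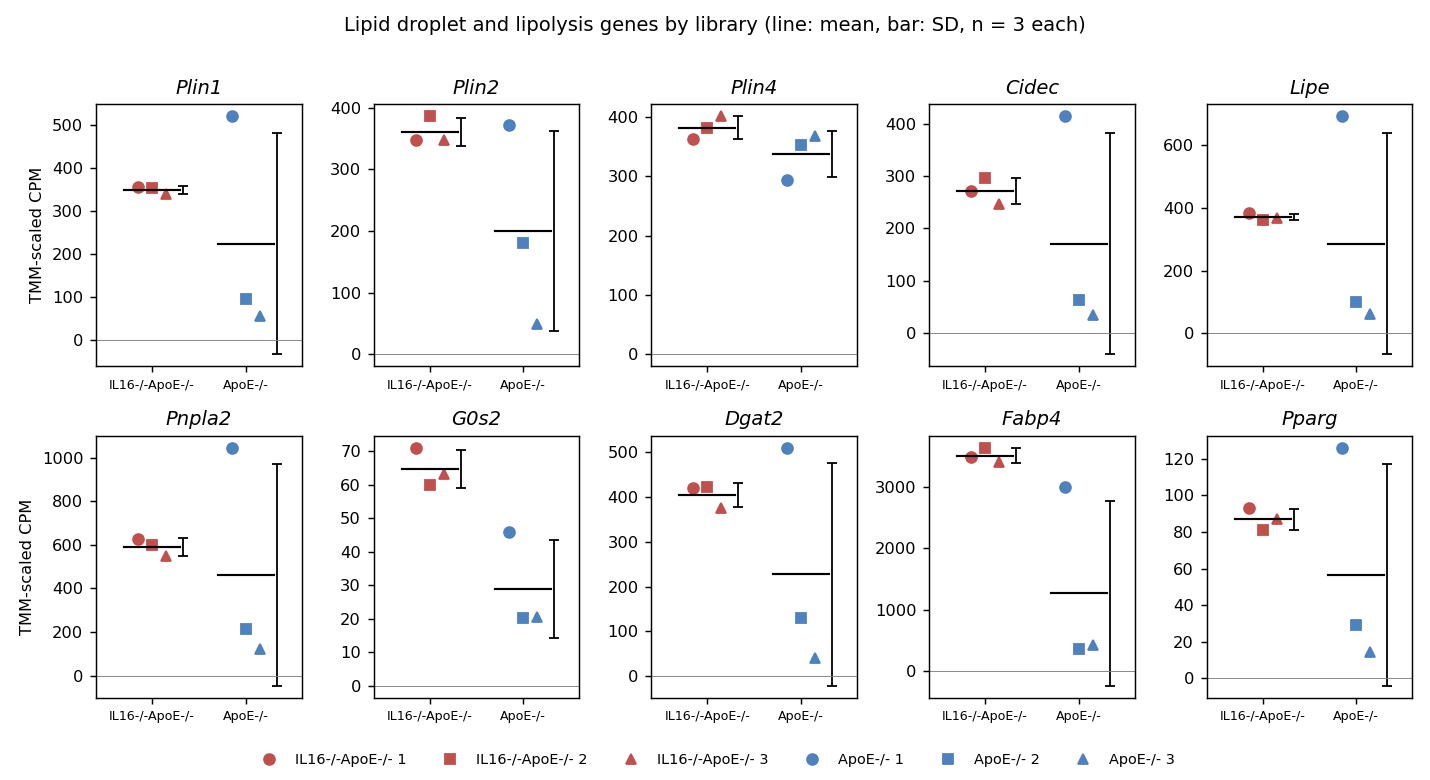
Each panel plots the TMM-scaled CPM of 1 gene (vertical axis, linear, with a grey line at 0) in the 3 IL16-/-ApoE-/- libraries (red, left) and the 3 ApoE-/- libraries (blue, right), with marker shapes for the sample numbers, a line for the mean and a bar for the SD. The red points lie close together in every panel, and the blue circle, ApoE-/- 1, lies far above the other blue points except for Plin4.

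Among the droplet coats, Plin1 is the perilipin of the adipocyte droplet surface (ENSMUSG00000030546, chr7:79720218-79732903 on the minus strand of GRCm38, as annotated in GENCODE M21, like all gene positions here). It had 355, 353 and 339 CPM in IL16-/-ApoE-/- 1, 2 and 3, and 520, 96.5 and 56.2 CPM in ApoE-/- 1, 2 and 3. One ApoE-/- library was above every double mutant and the other pair far below, so the groups overlapped. Between the groups the log2 fold change was 0.64 (SE 0.79, adjusted p = 0.708 by edgeR).

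Plin2 coats droplets in most cell types, macrophages included (chr4:86648386-86670060, minus strand, ENSMUSG00000028494). Its level was 347, 386 and 347 CPM in IL16-/-ApoE-/- aortas and 371, 181 and 48.8 CPM in ApoE-/- aortas. ApoE-/- 1 lay within the range of the double mutants, ApoE-/- 2 at about the middle and ApoE-/- 3 lowest. The log2 fold change of 0.85 (SE 0.65) did not pass (edgeR adjusted p = 0.546).

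Plin4, a perilipin of adipocytes that is also found in striated muscle, lies at chr17:56100591-56109803 on the minus strand (ENSMUSG00000002831). Its level was 362, 381 and 401 CPM in IL16-/-ApoE-/- aortas and 294, 352 and 368 CPM in ApoE-/- aortas. ApoE-/- 1, the highest library for most of the other genes, was the lowest for Plin4, and the coefficient of variation (SD over mean) within the ApoE-/- group was 11.5%, against 80.9% to 124% for Plin1, Plin2, Cidec, Lipe, Pnpla2, Dgat2, Fabp4 and Pparg. The fold change was 0.18 on the log2 scale (SE 0.20, edgeR adjusted p = 0.689).

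Cidec, which lets droplets fuse into the large droplet of white fat cells, is at chr6:113424634-113435760 on the minus strand (ENSMUSG00000030278). Its level was 271, 296 and 247 CPM in IL16-/-ApoE-/- libraries, against 414, 63.0 and 34.0 CPM in ApoE-/- libraries. With a coefficient of variation of 124% it was the most variable of the 10 within the ApoE-/- group, against 9.06% in the double mutants. Its fold change was 0.67 on the log2 scale (SE 0.88, edgeR adjusted p = 0.723).

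Of the lipolysis enzymes, Pnpla2 encodes adipose triglyceride lipase (chr7:141455198-141460743, plus strand, ENSMUSG00000025509). Its level was 626, 598 and 547 CPM in IL16-/-ApoE-/- aortas and 1045, 216 and 121 CPM in ApoE-/- aortas. The mean of the double mutants was 0.565 times the level of ApoE-/- 1 and 3.50 times the mean of ApoE-/- 2 and 3. Over all libraries the log2 fold change was 0.36 (SE 0.76, edgeR adjusted p = 0.835).

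Lipe, which encodes hormone-sensitive lipase (chr7:25379527-25398710, minus strand, ENSMUSG00000003123), had 383, 363 and 367 CPM in IL16-/-ApoE-/- and 692, 101 and 63.1 CPM in ApoE-/- aortas. Its ApoE-/- values spanned 10.96-fold, again on both sides of the double mutants. The log2 fold change of 0.38 (SE 0.86, edgeR adjusted p = 0.848) was turned to -0.02 when ApoE-/- 2 was left out and to -0.10 when ApoE-/- 3 was, and that of Pnpla2 to -0.10 without ApoE-/- 3, so over all 6 libraries no direction is given for either lipase.

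G0s2, whose protein binds and inhibits adipose triglyceride lipase, lies at chr1:193272161-193273217 on the minus strand (ENSMUSG00000009633). It had 71.0, 59.8 and 63.2 CPM in IL16-/-ApoE-/- aortas and 45.9, 20.4 and 20.5 CPM in ApoE-/- aortas. Every double mutant was above every ApoE-/- library, ApoE-/- 1 included. The log2 fold change was 1.16 (SE 0.35), with an unadjusted p of 0.0134 and an edgeR adjusted p of 0.194. DESeq2 gave G0s2 an adjusted p of 0.0397, and it was the only gene of the 10 that passed by that tool, by which 6.25% of 19757 genes were higher and 2.34% lower. DESeq2 returned no adjusted p for Cidec and Lipe.

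For synthesis and transport, Dgat2 encodes the acyltransferase that makes triglyceride at the droplet and the endoplasmic reticulum (chr7:99153658-99182719, minus strand, ENSMUSG00000030747). It had 419, 421 and 374 CPM in IL16-/-ApoE-/- and 509, 130 and 41.5 CPM in ApoE-/- aortas, and its ApoE-/- values spanned 12.3-fold. Its log2 fold change was 0.83 (SE 0.81, edgeR adjusted p = 0.631).

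Fabp4 encodes the fatty acid carrier of adipocyte cytosol, also made by macrophages and capillary endothelium (chr3:10204088-10208576, minus strand, ENSMUSG00000062515). Levels were 3490, 3635 and 3402 CPM in IL16-/-ApoE-/- aortas, against 3002, 365 and 426 CPM in ApoE-/- aortas. With G0s2 it was 1 of 2 genes of the set whose groups did not overlap, all 3 double mutants being higher. Over all genes tested, 14.9% had every double mutant above every ApoE-/- library and 11.5% the reverse. Fabp4 had a log2 fold change of 1.47 (SE 0.85, edgeR adjusted p = 0.431).

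Pparg, the nuclear receptor that directs fat cell formation and activates many of the other genes, lies at chr6:115360951-115490399 on the plus strand (ENSMUSG00000000440). It was at 92.9, 81.3 and 86.8 CPM in IL16-/-ApoE-/- aortas and 126, 29.1 and 14.4 CPM in ApoE-/- aortas. The order of the ApoE-/- libraries was that of Plin1, Plin2, Cidec, Lipe, Pnpla2 and Dgat2, and the groups overlapped. Its log2 fold change was 0.62 (SE 0.74, edgeR adjusted p = 0.694).

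Counted over the set, 0 of 10 passed in either direction at an adjusted p under 0.05, where 1.14% of the 19833 genes tested were higher and 0.0605% were lower. At an unadjusted p under 0.05 by edgeR, 1 of the 10 was higher (G0s2). Of the 19833 genes tested, 1760 were higher and 1394 lower at that level. The median log2 fold change of the 10 was 0.66, beside -0.05 for all genes tested. Within the double mutants the coefficient of variation of the 10 ran from 2.58% (Plin1) to 9.06% (Cidec). Over all genes, the biological coefficient of variation fitted by edgeR was 0.209 among the double mutants and 0.593 among the ApoE-/- libraries.

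Each library was left out in turn, and only the fit without ApoE-/- 1 called any of the 10. In that fit of 3 IL16-/-ApoE-/- against 2 ApoE-/- libraries, 8 of the 10 were higher and 0 lower, where 13.1% of 20177 genes were higher and 12.8% lower. Fabp4 rose by 3.15 on the log2 scale (SE 0.18, edgeR adjusted p = 0.000791) and G0s2 by 1.66 (SE 0.12, adjusted p = 0.00148). Of the lipases, Lipe rose by 2.17 (SE 0.22, adjusted p = 0.00291) and Pnpla2 by 1.81 (SE 0.27, adjusted p = 0.00719) in this fit, whereas their signs turned in the omissions given above. Plin1 rose by 2.19 (SE 0.25), Cidec by 2.48 (SE 0.29), Dgat2 by 2.23 (SE 0.49) and Pparg by 2.00 (SE 0.31), with adjusted p between 0.00361 and 0.0254. Neither Plin2, with a log2 fold change of 1.65 (SE 0.54, adjusted p = 0.0746), nor Plin4, at 0.08 (SE 0.11, adjusted p = 0.620), passed. This omission is singled out because it moved the values most. ApoE-/- 1 is also the library with Xist at 474 CPM and Ddx3y at 0.143 CPM. The part of sex in these values was not tested. In limma-voom with sample quality weights, which uses all 6 libraries and gives less weight to variable ones, 9 of the 10 were higher, Plin4 being the exception, where 9.39% of genes were higher and 7.5% lower.

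**Figure D2:**
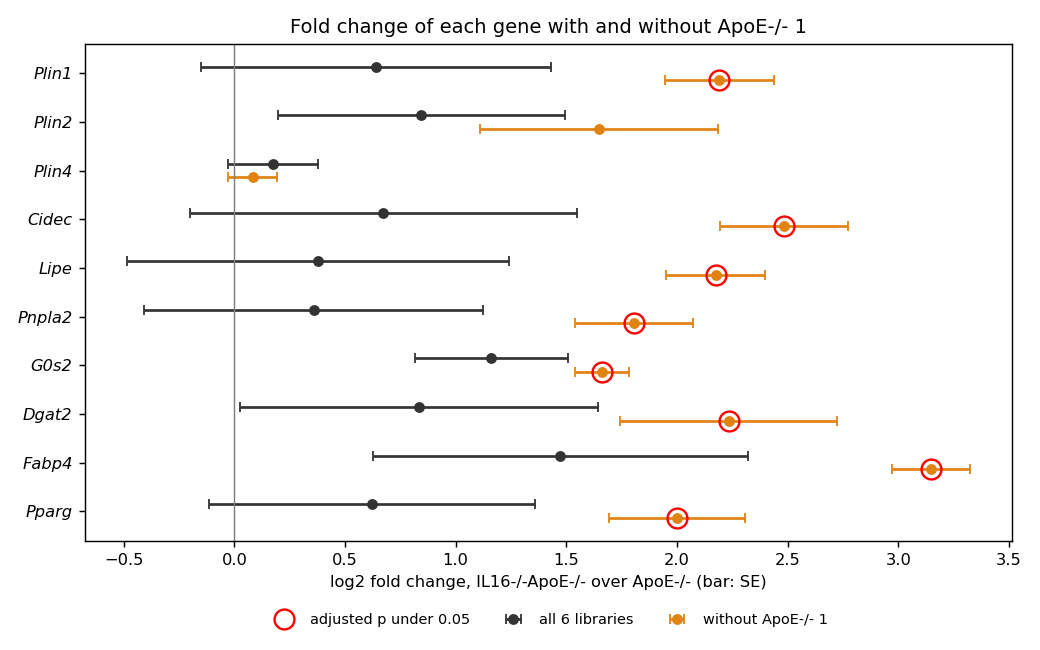
Points give the log2 fold change of IL16-/-ApoE-/- over ApoE-/- for each gene (horizontal axis), with bars for the SE, fitted over all 6 libraries (black) and without ApoE-/- 1 (orange), and red rings mark an adjusted p under 0.05. No black point is ringed, 8 orange points are, and the orange point of Plin4 lies at 0.08 beside a black one at 0.18.

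Levels can be compared between genes per length of transcript, as CPM per kilobase of the median coding transcript. On that scale Fabp4 stood above all others in the double mutants at 3916 ± 131 (SD, n = 3). It was followed by Pnpla2 (267 ± 18.1), Plin2 (191 ± 11.9), Plin1 (186 ± 4.80), Dgat2 (179 ± 11.7), Cidec (159 ± 14.5) and Lipe (117 ± 3.31). The lowest levels per kilobase were those of G0s2 (74.3 ± 6.59), Plin4 (66.3 ± 3.36) and Pparg (47.7 ± 3.16). The values of Plin2 and Plin1, of Plin2 and Dgat2, of Plin1 and Dgat2, of Dgat2 and Cidec, and of G0s2 and Plin4 overlapped between libraries. The order within these pairs is therefore not beyond their spread. Plin4 changed its place among the ApoE-/- libraries, since its 51.1 CPM per kilobase was the lowest of the 10 in ApoE-/- 1, while its 63.9 CPM per kilobase in ApoE-/- 3 was exceeded only by Fabp4 at 476.

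Most markers of adipocytes were highest in ApoE-/- 1 and low in ApoE-/- 2 and 3. The summed level of 6 adipocyte genes that are not in the set (Adipoq, Cfd, Retn, Adrb3, Acvr1c and Trarg1) was 1450, 1420 and 1357 CPM in IL16-/-ApoE-/- aortas and 2605, 248 and 346 CPM in ApoE-/- aortas. None of the 6 passed with all libraries, and 6 of 6 were higher in the fit without ApoE-/- 1, beside the 13.1% of all genes that were. Cfd, the secreted factor adipsin, made up most of each sum. Of the 6, Trarg1 had another pattern, with 81.6, 86.8 and 88.9 CPM in the double mutants and 47.1, 12.5 and 9.51 CPM in ApoE-/- aortas, without overlap. Lep, a marker outside the 6, was at its lowest in ApoE-/- 1, with 22.0, 18.7 and 19.3 CPM in the double mutants and 0.871, 1.09 and 2.05 CPM in ApoE-/- aortas. The summed level of 12 brown adipocyte genes, Ucp1 and Cidea among them, was 3004, 2939 and 2618 CPM in the double mutants, against 2883, 855 and 346 CPM in ApoE-/- aortas. Ucp1 and Cidea carried most of that sum in 5 of the 6 libraries, and 9 of the 12 fold changes were above 0 and 3 below. Those below 0 were of Elovl3, of Dio2, at 86.3, 69.0 and 96.04 CPM in the double mutants and 127, 165 and 86.9 CPM in ApoE-/- aortas, and of Prdm16, at 47.03, 39.1 and 47.8 CPM in the double mutants and 25.7, 73.7 and 105 CPM in ApoE-/- aortas. No defining marker of either list was at 0 in any library. Smooth muscle ran the other way, the sum of its 8 markers being 9845, 8684 and 9562 CPM in IL16-/-ApoE-/- and 4350, 19211 and 27627 CPM in ApoE-/- aortas, so ApoE-/- 1 held the least and ApoE-/- 3 the most. In these bulk samples fewer cells of a type and less RNA per cell cannot be told apart.

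Other cells that use members of the set varied as well. The 10 macrophage markers summed to 4380, 6227 and 4670 CPM in IL16-/-ApoE-/- and 4752, 2427 and 415 CPM in ApoE-/- aortas. Lyz2, a lysozyme, made up most of each sum, and 7 of the 10 fold changes were above 0 and 3 below. The scavenger receptor Cd163 was among those below, with 31.0, 42.3 and 26.9 CPM in IL16-/-ApoE-/- and 107, 69.5 and 19.6 CPM in ApoE-/- aortas (log2 fold change -0.97, edgeR adjusted p = 0.435), as was Mrc1 (-0.58, adjusted p = 0.612). For 8 foam cell genes, of which Spp1 and Gpnmb carried most of the level in 5 of the 6 libraries, the sums were 8455, 10746 and 9236 CPM in the double mutants, against 6521, 4566 and 855 CPM in ApoE-/- aortas. The sums did not overlap. Of the single genes 5 of 8 were separated in this way, beside 14.9% of all genes tested. Lpl, Cd9 and Abcg1 overlapped, and none of the 8 passed. Capillary endothelial markers, 6 in number, summed to 1265, 1316 and 1252 CPM in IL16-/-ApoE-/- and 1398, 645 and 350 CPM in ApoE-/- aortas. Of these sums Cd36, also listed as a PPARG target, held 773, 861 and 779 CPM in IL16-/-ApoE-/- and 1013, 369 and 109 CPM in ApoE-/- aortas. Of the 6 fold changes 5 were above 0 and 1 below, that of Meox2, which was lower in every double mutant. Aqp1 was higher in every double mutant. The 8 general endothelial markers summed to 1286, 1302 and 1269 CPM in IL16-/-ApoE-/- and 1079, 789 and 673 CPM in ApoE-/- aortas, without overlap. Of these genes 7 of 8 had every double mutant above every ApoE-/- library, beside 14.9% of all genes tested. Erg overlapped, and none of the 8 passed. The part of macrophages, foam cells and endothelium, capillary or other, in the levels of Plin2, Fabp4 and Pparg was not tested. The summed markers of kidney tubule and of striated muscle also separated the groups. The 8 kidney tubule genes summed to 514, 494 and 548 CPM in IL16-/-ApoE-/- aortas and to 0.358, 0.789 and 0.211 CPM in ApoE-/- aortas, where 6 or 7 of the 8 were at 0. Of these 8, 7 passed as higher, beside 1.14% of all genes tested. Skeletal muscle markers (9 genes) summed to 86.7, 21.1 and 381 CPM in the double mutants and 11.7, 3.51 and 6.35 CPM in ApoE-/- aortas. Cardiac muscle markers (7 genes) summed to 401, 201 and 353 CPM in the double mutants and 80.2, 26.3 and 41.8 CPM in ApoE-/- aortas. Hepatocyte markers (6 genes) overlapped between the groups, with sums of 159, 168 and 152 CPM in the double mutants and 386, 105 and 41.3 CPM in ApoE-/- aortas. Of these, Cyp2e1 had 154, 162 and 146 CPM in the double mutants and 384, 49.8 and 41.1 CPM in ApoE-/- aortas. Alb had 1.22, 2.39 and 2.79 CPM in the double mutants and 0.525, 43.5 and 0 CPM in ApoE-/- aortas. The part of these tissues in the results on the lipid droplet genes was not tested.

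**Figure D3:**
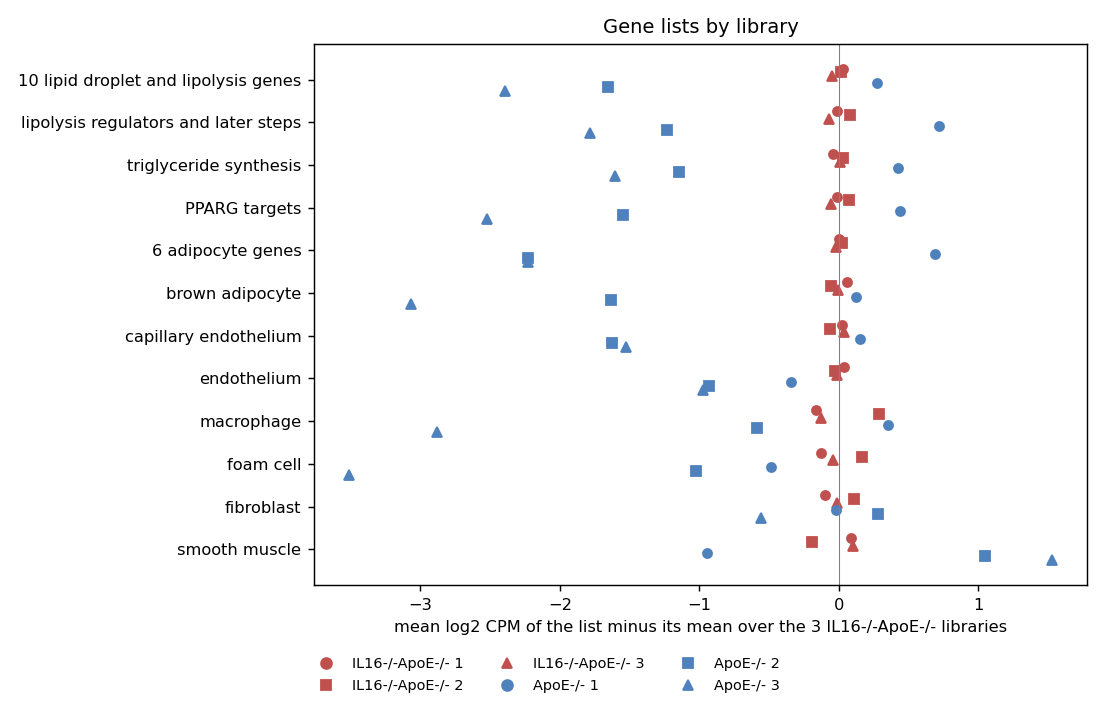
For each gene list (rows) the mean log2 CPM in a library is plotted as its difference from the mean of the 3 IL16-/-ApoE-/- libraries (horizontal axis), in red for IL16-/-ApoE-/- and in blue for ApoE-/-, with marker shapes for the sample numbers. The blue square and triangle, ApoE-/- 2 and 3, lie left of 0 for the upper 6 lists, down to brown adipocyte. They also lie left of 0 for capillary endothelium, endothelium, macrophage and foam cell, and right of 0 for smooth muscle. For fibroblast the blue square lies right of 0 and the blue triangle left. The blue circle, ApoE-/- 1, lies right of 0 for the same 6 lists, capillary endothelium and macrophage. For endothelium, foam cell and smooth muscle the blue circle lies left of 0.

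To set the genes against the amount of fat marker RNA in a library, the log2 CPM of each was taken minus the mean log2 CPM of the 6 adipocyte genes, and 6 ratios between members were taken in the same way. With 3 libraries against 3, an exact two-sided permutation test cannot give a p under 0.1, so none of the 16 values could pass, and p-values were adjusted over the 16. Relative to the adipocyte genes Fabp4 was at 4.99, 5.03 and 4.98 in IL16-/-ApoE-/- and 4.08, 3.96 and 4.19 in ApoE-/- aortas (log2 ratios). All 3 double mutants were above all 3 ApoE-/- libraries, and the ApoE-/- libraries, far apart in CPM, had an SD of 0.11 on this scale. The difference was 0.92 (exact permutation p = 0.1, adjusted p = 0.533), and it kept its sign and the separation of the groups with Adipoq alone as the denominator, where the ratio of CPM was 9.18, 9.88 and 10.5 in IL16-/-ApoE-/- and 5.55, 5.52 and 8.56 in ApoE-/- aortas. On this relative scale 3.02% of the 19833 genes had every double mutant above every ApoE-/- library.

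For the other 9 genes the relative values of the groups overlapped, with exact permutation p between 0.4 and 1 and adjusted p between 0.914 and 1. G0s2, separated in CPM, was at -0.63, -0.89 and -0.77 relative to the adipocyte genes in IL16-/-ApoE-/- and at -1.95, -0.20 and -0.19 in ApoE-/- aortas, so the double mutants lay between ApoE-/- 1 and the other pair. Plin4 was at 1.72, 1.78 and 1.89 in the double mutants, against 0.73, 3.91 and 3.97 in ApoE-/- aortas, which is the widest range among the 10. Relative values of Plin1 lay between 1.65 and 1.70 in IL16-/-ApoE-/- and were 1.55, 2.04 and 1.26 in ApoE-/- aortas.

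Among ratios of CPM between members, Fabp4 over Plin1 was 9.83, 10.3 and 10.04 in IL16-/-ApoE-/- and 5.78, 3.78 and 7.58 in ApoE-/- aortas. Dgat2 over Pnpla2, an enzyme of synthesis over one of breakdown, was 0.669, 0.705 and 0.684 in the double mutants, against 0.487, 0.604 and 0.342 in ApoE-/- aortas. Both ratios were higher in each double mutant than in each ApoE-/- library, with log2 differences of 0.87 and 0.56 (exact permutation p = 0.1 and adjusted p = 0.533 for each). The share of other gene pairs separated in this way was not counted. Fabp4 over Plin1 also shares Fabp4 with its value relative to the adipocyte genes. G0s2 over Pnpla2, the inhibitor over its lipase, was 0.113, 0.1001 and 0.116 in IL16-/-ApoE-/- and 0.0440, 0.0944 and 0.169 in ApoE-/- aortas, and the groups overlapped. Lipe over Pnpla2 was 0.611, 0.607 and 0.670 in IL16-/-ApoE-/-, against 0.662, 0.467 and 0.520 in ApoE-/- aortas. Plin2 over Plin1 was 0.978, 1.09 and 1.02 in the double mutants and 0.715, 1.88 and 0.868 in ApoE-/- aortas. Plin4 over Plin1 was close to 1 in IL16-/-ApoE-/- aortas (1.02, 1.08 and 1.18), while in ApoE-/- aortas it was 0.566, 3.65 and 6.54.

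**Figure D4:**
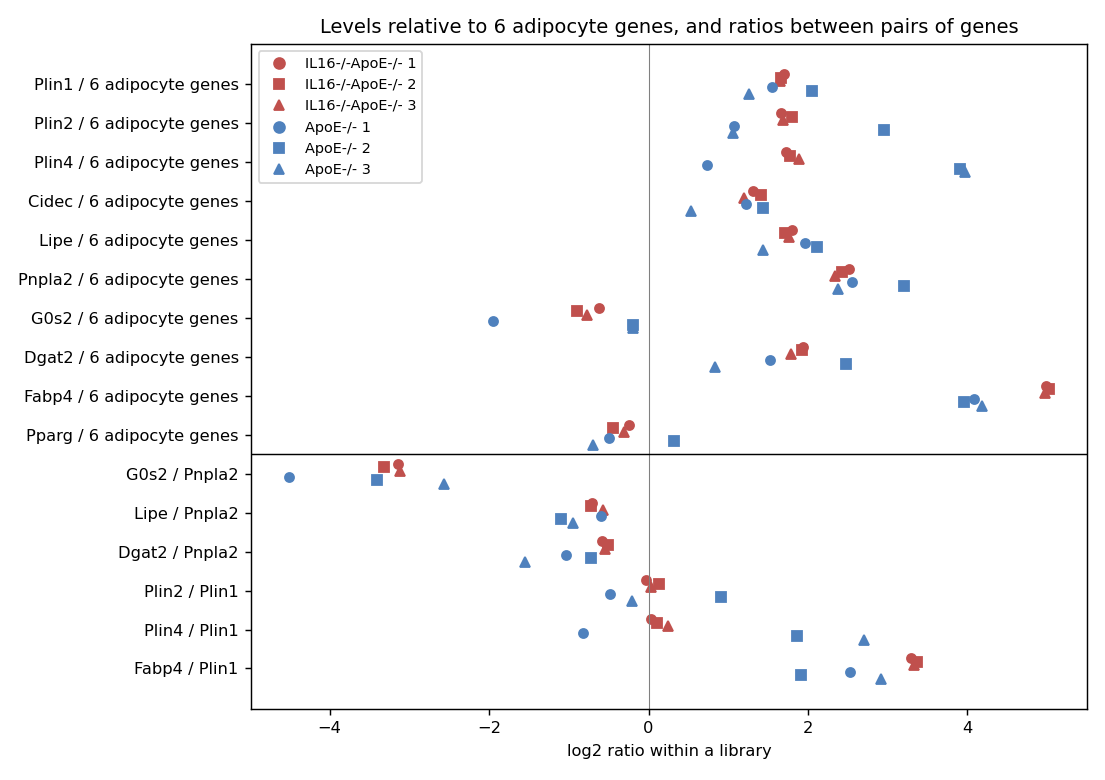
The upper rows give the log2 level of each gene relative to 6 adipocyte genes in the same library and the lower rows log2 ratios between pairs of genes (horizontal axis), in red for IL16-/-ApoE-/- and in blue for ApoE-/-, with marker shapes for the sample numbers. Red and blue points are apart for Fabp4 relative to adipocyte genes, Dgat2 over Pnpla2 and Fabp4 over Plin1, and overlap in the other rows.

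Further genes of the pathway were read from 5 lists, in which no gene passed in either direction with all 6 libraries. Of 13 lipolysis regulators and later enzymes the median log2 fold change was 0.44, and the smallest p belonged to Prkaca, the catalytic subunit of protein kinase A (0.48, SE 0.21, edgeR adjusted p = 0.337), and Adrb1, a beta-adrenergic receptor (0.47, SE 0.37, adjusted p = 0.557). Of 14 genes of triglyceride synthesis the median was 0.37, led by the monoacylglycerol acyltransferases Mogat1 (1.54, SE 0.71, adjusted p = 0.353) and Mogat2 (0.91, SE 0.59, adjusted p = 0.477). The median of 12 PPARG targets was 0.64. Fabp5, the carrier of macrophages and skin, had 328, 435 and 366 CPM in IL16-/-ApoE-/- and 122, 72.7 and 19.6 CPM in ApoE-/- aortas, without overlap (log2 fold change 2.40, SE 0.62, edgeR adjusted p = 0.148), and Aqp7, the glycerol channel of adipocytes, had a log2 fold change of 0.77 (SE 0.75, adjusted p = 0.630).

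Of 14 other lipid droplet proteins the median log2 fold change was 0.36. Cideb, the CIDE protein of liver, had 2.33, 2.14 and 1.51 CPM in IL16-/-ApoE-/- and 0.298, 0.115 and 0.0994 CPM in ApoE-/- aortas (log2 fold change 3.52, SE 0.59, edgeR adjusted p = 0.0541), and Fitm1, a droplet-forming protein of striated muscle, had a log2 fold change of 2.90 (SE 0.90, adjusted p = 0.208). Beside them stand the kidney tubule and striated muscle markers given above, whose part in these values was not tested. Among 16 PPARG partners and adipogenic factors the median was 0.10, and the smallest p belonged to Cebpd (-0.33, SE 0.17, edgeR adjusted p = 0.383) and Klf15 (-0.20, SE 0.15, adjusted p = 0.545), both early or supporting factors of fat cell formation.

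In the fit without ApoE-/- 1, 11 of 13 lipolysis genes, 11 of 14 synthesis genes and 9 of 12 PPARG targets rose, and 0 fell in these 3 lists. Among them Aqp7 rose by 2.27, the beta-adrenergic receptor Adrb3 by 1.505, the diacylglycerol acyltransferase Dgat1 by 1.45 and the adipokine Adipoq by 2.62 on the log2 scale (SE 0.10 to 0.18, edgeR adjusted p 0.00131 to 0.00155). Of the other lipid droplet proteins 6 of 14 rose, Cidea of brown fat by 3.00 (SE 0.38, adjusted p = 0.00491), and Cavin1, a coat protein of caveolae, fell by 0.99 (SE 0.20, adjusted p = 0.0198). Of the PPARG partners 6 of 16 rose, Cebpa by 2.02 (SE 0.22, adjusted p = 0.0032) and Rxrg by 1.64 (SE 0.21, adjusted p = 0.00457), and Prdm16, a factor of brown fat, fell by 1.00 (SE 0.18, adjusted p = 0.0128). These shares stand beside the 13.1% and 12.8% of all genes given for this fit. The lists share genes, so their counts are not separate. Aqp7 is in the lipolysis and target lists, Gpd1 and Acsl1 in the synthesis and target lists, and Cebpa in the target and partner lists. Adrb3 and Adipoq are also among the 6 adipocyte genes.

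The genes whose log2 CPM most resembled the mean profile of the 10 over the 6 libraries were Slc25a42 (Pearson r = 0.999), Cib2 (0.998), Hp (0.998), Chdh (0.997) and Tufm (0.997). The 6 points share their libraries and fall into a high and a low cluster, so r is given as a description. Slc25a42, a mitochondrial carrier of coenzyme A, had 90.0, 88.5 and 85.6 CPM in IL16-/-ApoE-/- and 89.6, 29.1 and 17.2 CPM in ApoE-/- aortas. Hp, the haemoglobin-binding haptoglobin, which fat also secretes, had 757, 960 and 807 CPM in the double mutants and 858, 124 and 52.8 CPM in ApoE-/- aortas.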

How the data were processed

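RNA was captured by polyA from mouse aorta and made into strand-marked libraries, per the labels' protocols. The authors deposited a single table of unnormalized gene counts, and cutadapt, HISAT2 and StringTie are named per the submitters' processing notes. No label or header used here names the genome build, annotation, counting program or strand setting, so reads of overlapping or antisense genes cannot be told apart. Symbols, positions and transcript lengths were matched by Ensembl ID to GENCODE M21 on GRCm38 (55141 of 55401 IDs), and the 260 others held at most 0.0114% of a library's counts.

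The filter filterByExpr of edgeR asked for a count of at least 10 and a total of at least 15. After TMM scaling, edgeR's quasi-likelihood test was run on the 2 groups, robust and two-sided with no covariate. P-values were adjusted over all genes tested by Benjamini-Hochberg, with a threshold of 0.05. Log2 CPM used a prior count of 2. A count of 0 allows up to 3 counts, or 0.0358 to 0.0698 CPM in a library, for counting error only. The alternatives tried were upper-quartile and RLE factors, plain library totals, 2 other filters on low counts, DESeq2, limma-voom without and with sample quality weights, the sample number as a block, and leaving out each library. Scripts were tested on simulated data. Named genes were the 10 members, up to 4 of each list past the threshold or the 2 with the smallest p, and the 5 most like the members' mean profile. The members, lists and tests were chosen with earlier results of these data known. Versions were Python 3.11.15, R 4.3.3, DESeq2 1.42.0, limma 3.58.1 and edgeR 4.0.16.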

Additional observations from a re-analysis of the deposited data

How the results depend on the processing

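The 10 lipid droplet and lipolysis genes had 0 calls in either direction under RLE or upper-quartile factors, library totals, both other filters on low counts, limma-voom and the replicate block, as in the edgeR fit reported. Higher calls came to 1 with DESeq2 and 9 with limma-voom and sample quality weights, and to between 0 and 8 when each library was left out, all 8 without ApoE-/- 1. Of the fold changes of the 10 genes under the 15 alternatives, 127 kept direction and side of the threshold, 18 gained a call and 3 changed sign, 2 having no adjusted p from DESeq2, and the 3 were of the lipases: leaving out each library gave -0.10 to 2.17 for Lipe and -0.10 to 1.81 for Pnpla2 on the log2 scale.

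Among the 14 other lipid droplet proteins, 1 was called higher with library totals, without a filter, with at least 1 CPM in 3 libraries and with limma-voom (Cideb in each), 2 with DESeq2, 5 with sample quality weights, and 0 to 6 higher and 0 to 1 lower when each library was left out. With sample quality weights 8 lipolysis genes, 7 synthesis genes, 9 PPARG targets and 3 PPARG partners were higher, and DESeq2 gave 1 PPARG target. Leaving out each library gave 0 to 11 lipolysis genes, 0 to 11 synthesis genes, 0 to 9 PPARG targets and 0 to 6 PPARG partners higher and 0 to 1 partners lower, the upper end always without ApoE-/- 1.

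Over all genes, 226 higher and 12 lower calls became 1235 and 462 with DESeq2, 386 and 23 with limma-voom, and 1863 and 1488 with sample quality weights. When each library was left out they ranged from 0 to 2651 higher and from 0 to 2580 lower, being 2651 and 2580 without ApoE-/- 1, 101 and 7 without ApoE-/- 2, 163 and 19 without ApoE-/- 3, and 0 and 0 without any 1 of the IL16-/-ApoE-/- libraries. With the replicate block 0 genes were higher and 0 lower. Same-numbered samples did not deviate together (correlations across genes of -0.04, -0.03 and -0.01), no sample correlated best with its own number, and the samples share only a number. The cause of these shifts was not tested.

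Values relative to the adipocyte genes that lay near 0 changed sign with the denominator. With Adipoq alone the log2 difference was -0.25 for Plin1, -0.28 for Plin2, -0.061 for Cidec, -0.29 for G0s2 and -0.029 for Dgat2. With Lep added to the 6 genes it was -0.34 for Plin1, -0.37 for Plin2, -0.15 for Cidec, -0.37 for G0s2 and -0.11 for Dgat2. Leaving out each library gave -0.13 to 0.26 for Plin1, -0.30 to 0.65 for Plin2, -0.022 to 0.42 for Cidec, -0.28 to 0.060 for Lipe, -0.57 to 0.31 for G0s2, -0.12 to 0.71 for Dgat2 and -0.25 to 0.26 for Pparg. The ratio of G0s2 over Pnpla2 ran from -0.21 to 0.76 and that of Plin2 over Plin1 from -0.31 to 0.39. The differences for Fabp4 over the adipocyte genes, Fabp4 over Plin1 and Dgat2 over Pnpla2 kept their sign under every alternative tried for them.

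With 3 libraries a group and 1 ApoE-/- library unlike the other pair, a fold change of the 10 has an SE of up to 0.88 on the log2 scale. The lowest count of any of the 10 in a library was 1156. Depth differed between the groups without overlap, and the share of fat around the vessel is not recorded in the labels.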

Other observations

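Of 10 adipocyte markers, only Lep, which encodes the fat hormone leptin and was singled out after its values were seen, passed with all 6 libraries. The groups, whose values are given with the adipocyte markers, did not overlap, and Lep, like Plin4 but unlike the other 9 lipid droplet genes, was at its lowest in ApoE-/- 1, the library with the highest Plin1, Cidec, Lipe and Pnpla2. The log2 fold change was 3.90 (SE 0.38, edgeR adjusted p = 0.0168), and it was between 3.67 and 4.35 when each library was left out. The adjusted p was above 0.05 without ApoE-/- 2 (0.0593), without IL16-/-ApoE-/- 1 (0.159), 2 (0.136) or 3 (0.133), and with the replicate block (0.179).

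Ucp1, the uncoupling protein of brown fat, had 1638, 1777 and 1412 CPM in IL16-/-ApoE-/- aortas and 1592, 385 and 75.8 CPM in ApoE-/- aortas. Its log2 fold change of 1.23 (SE 0.95) did not pass (edgeR adjusted p = 0.550). Trem2, a receptor of lipid-laden macrophages, was at 107, 138 and 120 CPM in IL16-/-ApoE-/- and 92.1, 48.9 and 6.60 CPM in ApoE-/- aortas, where every double mutant was higher (log2 fold change 1.302, SE 0.79, edgeR adjusted p = 0.454).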
